A study of Mus musculus with 4 samples.

Results

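The genes described here are the 9 members of the Slc35a and Slc35b subfamilies of solute carriers, Slc35a1 to Slc35a5 and Slc35b1 to Slc35b4. They were chosen by symbol, with the level of Slc35a4 in this same comparison already known to be lower, so the differences, limits and calls of all 9 are given as descriptions and are not evidence about the family. They are 9 of 25050 genes in the table and 9 of the 15540 genes tested, so none of them was lost to the filter on low values. RNA was sequenced from HT-22, an immortalised cell line from mouse hippocampus, at passages 21 to 24. There were 2 libraries of cells labelled Nsmce1 overexpression and 2 libraries of cells labelled wild type. The series text also calls the treated cells inducible for Nsmce1 and the controls uninduced, so it is not settled whether the controls carry the inducible construct. The promoter that drives Nsmce1, the time of induction and whether a line is 1 clone are not stated in the labels. The labels do not state that replicate libraries are separate cultures, and the errors given here measure only the spread between these samples, which may be technical.

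Nucleotide sugar transporters sit in the membranes of the Golgi apparatus and the endoplasmic reticulum. They carry activated sugars, and activated sulfate, from the cytosol into the lumen, where glycosyltransferases and sulfotransferases use them to build glycoproteins, glycolipids and proteoglycans. The spent nucleotide is trimmed by phosphatases in the lumen, and its monophosphate leaves in exchange for the next activated sugar. In neurons, sialylated glycoproteins and gangliosides, heparan and chondroitin sulfate and the matriglycan of alpha-dystroglycan all depend on this supply.

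The recovered reads came to 32516117 and 44602989 in the Nsmce1 overexpression libraries and to 25787452 and 31010351 in the wild type libraries. Nsmce1 itself, which encodes a subunit of the SMC5/6 complex, had 17851 and 16525 normalised reads in the overexpression libraries, against 1108 and 1206 in the wild type libraries. A normalised read is a read count scaled by the authors to a common depth. Of mature neuron markers, 12 were in the table and 6 were tested, and their summed level was 3981 and 3962 normalised reads in overexpressing cells, against 4347 and 3594 in wild type cells. Most of that sum was Dlg4, Syn1 and Tubb3, whereas Slc17a7, the vesicular glutamate transporter of hippocampal neurons, had at most 5.03 normalised reads in any library and Grin1 at most 2.19. The 13 fibroblast and mesenchyme markers in the table summed to 607758 and 529659 normalised reads in overexpressing cells, against 628041 and 560820 in wild type cells, led by the collagen gene Col1a2. Glial and endothelial markers were low apart from Slc1a3 and Tmem119. None of the tested genes of the 6 marker lists was called by the test described below. An unadjusted limma p under 0.05 was found for 2 of 2 tested astrocyte, 1 of 2 microglia and 2 of 12 fibroblast markers. It was found for none of the 6 neuron, 3 oligodendrocyte and 3 endothelial markers tested, and for 7.92% of all tested genes. Aldh1l1 had 14 and 12.4 normalised reads in overexpressing cells, against 57.8 and 65.3 in wild type cells, and Slc1a3 had 4537 and 4245 in overexpressing cells, against 3302 and 2956 in wild type cells. The other log2 differences were -0.38 for Tmem119, -0.79 for Postn and -0.37 for Col3a1, and the part of these shifts in the results was not tested. The cells labelled hippocampal neuron thus had high collagen levels, and most neuron markers in the table were low. Dlg4, Syn1 and Tubb3 were well counted. Mapt, Syp, Syt1, Gria1, Nefm, Prox1, Slc17a7 and Grin1 had at most 21.4 normalised reads in any library, and Camk2a had between 30.5 and 108. Other planned neuron markers, among them Rbfox3, Map2, Snap25 and Gad1, were not in the table.

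Slc35a4 was the member with the largest difference. It had 508 and 680 normalised reads in the Nsmce1 overexpression libraries, against 2139 and 2314 in the wild type libraries. The raw reads behind these values were 508 and 931 in overexpressing cells, against 1701 and 2197 in wild type cells, so the gene was well counted in every library. Both overexpression libraries were far below both wild type libraries, and the gap between the groups was several times the gap within either. Its mean was 594 ± 121 normalised reads in overexpressing cells and 2226 ± 124 in wild type cells (SD, n = 2 in each group). The difference of the mean log2 values was -1.92, or 3.78-fold lower with overexpression, with a standard error of 0.153 and 95% limits of -2.29 and -1.55. Among the 15540 genes ranked by mean level, Slc35a4 stood at rank 8359 in overexpressing cells and at rank 3648 in wild type cells. In a bulk library, fewer cells expressing a gene and less RNA of it per cell cannot be told apart.

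**Figure D1:**
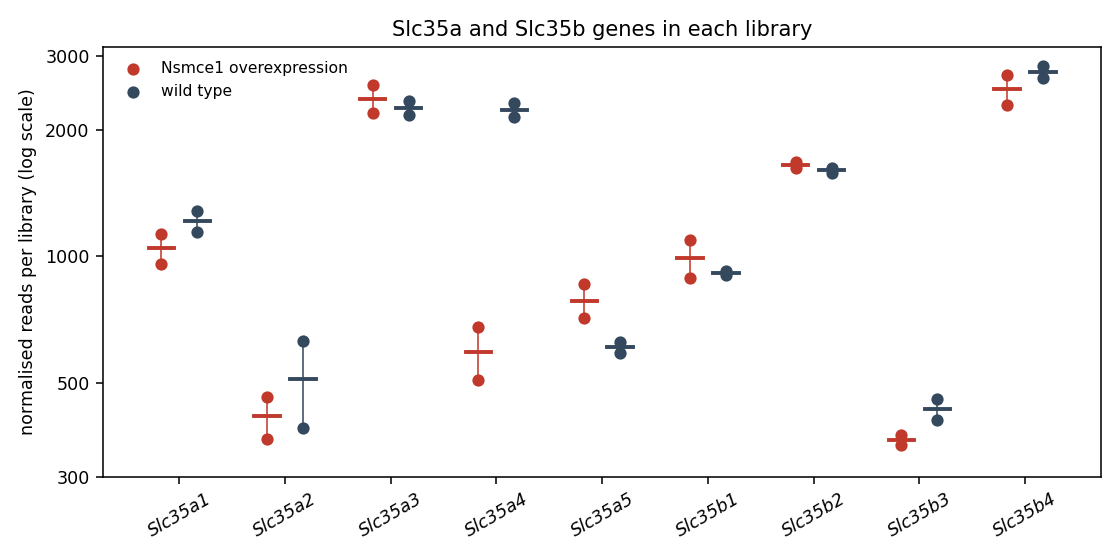
Normalised reads of the 9 transporter genes in each library, on a log axis, with a point per library, a thick bar at each group's mean and a thin line over its range, Nsmce1 overexpression left of wild type for each gene. Slc35a4 is the gene with a wide gap, 508 and 680 in overexpressing cells against 2139 and 2314 in wild type cells, and 5 of the 9 genes have overlapping groups.

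The transport substrate of Slc35a4 is less settled than that of its relatives. Work on human cells has linked it to the movement of CDP-ribitol into the Golgi, and in human cells its transcript also carries an upstream reading frame that makes a mitochondrial microprotein. The read counts cover the gene as a whole and do not separate these products. The annotated Apbb3 gene overlaps the end of Slc35a4 on the opposite strand by 152 bases. It had no entry in the table under its Ensembl identifier and is not analysed here. It is not known from the labels whether the counting used strand, so reads of the overlap cannot be assigned to either gene.

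Across all genes, limma called 30 of 15540 at an adjusted p under 0.05, which is 0.193%. Among them, 0.103% of the tested genes were called higher and 0.0901% lower. Of the 9 transporters, 1 was called, Slc35a4, and it was lower. Because this contrast was used to take up the family, the count is a description and nothing is read from it. Without wild type replicate 1 limma called 2 genes and without wild type replicate 2 it called 9, and Slc35a4 was not among them. Its log2 difference was then -1.98 without wild type replicate 1 (limma adjusted p = 0.149) and -1.86 without wild type replicate 2 (limma adjusted p = 0.161). With all 4 libraries, limma without a variance trend did not call it either (limma adjusted p = 0.256). Without overexpression replicate 1 limma called 51 genes and without overexpression replicate 2 it called 75, Slc35a4 among them both times.

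The groups did not overlap for 4 of the 9 members, 3 lower and 1 higher with overexpression, beside 39.1% of all tested genes. An unadjusted limma p under 0.05 was found for 2 of the 9, Slc35a4 and Slc35a5, beside 7.92% of all tested genes. Nothing is read from these counts either. The median log2 difference of the 9 members was -0.14 and that of the other 8 was -0.051, with 4 above and 4 below 0, against 0.0054 over all tested genes. Those 8 ranged from -0.26 for Slc35a2 to 0.36 for Slc35a5, or 1.03- to 1.29-fold in either direction. Without wild type replicate 1 the median of the 9 was 0.058, and without overexpression replicate 2 the log2 differences of Slc35a3 and Slc35b1, both near 0, were -0.04 and -0.03.

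**Figure D2:**
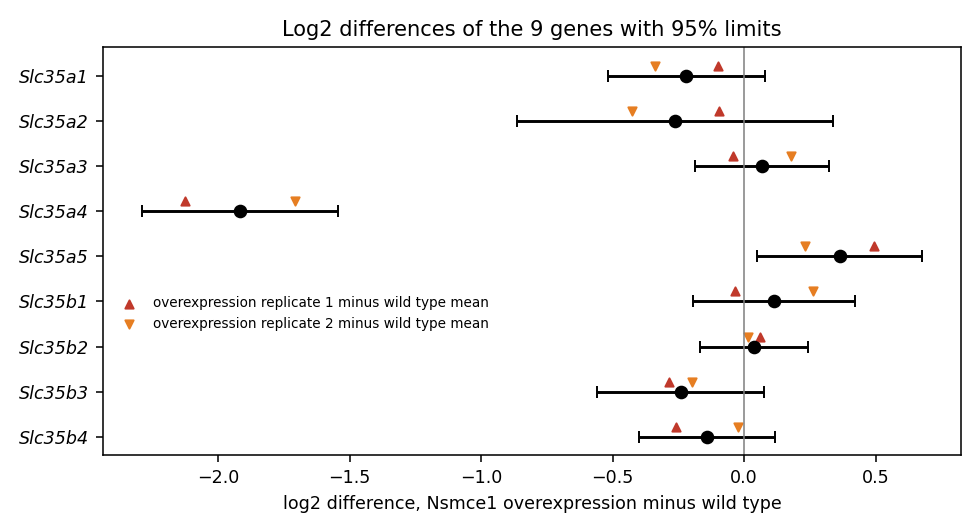
Log2 difference of each member, Nsmce1 overexpression minus wild type, with bars for the limma 95% limits and triangles for each overexpression library minus the wild type mean. Slc35a4 lies at -1.92, while the other 8 genes lie between -0.26 and 0.36.

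The pathway that alpha-dystroglycan shares with CDP-ribitol was next. Of 14 genes in the table for alpha-dystroglycan glycosylation and CDP-ribitol, 13 were tested, 9 lay above and 4 below 0, and the median log2 difference was 0.06. None was called, and 1 had an unadjusted limma p under 0.05, beside 7.92% of all tested genes. That gene was Tmem5, a xylosyltransferase of the dystroglycan glycan, with 1135 and 1130 normalised reads in overexpressing cells, against 846 and 1000 in wild type cells (log2 difference 0.30, limma adjusted p = 0.598). Tmem5 lies on chromosome 10, whose genes with a mean of at least 100 normalised reads had a median log2 difference of 0.14, and the part of that shift in its value was not tested. Dag1, which encodes dystroglycan, was among the most abundant genes of the list, at 15788 and 13682 normalised reads in overexpressing cells, against 14818 and 13487 in wild type cells. The groups overlapped for Dag1, whose log2 difference was 0.06. Pomgnt1, which extends O-mannose, had a log2 difference of -0.11. The enzymes of this route therefore held no call beside the lower level of Slc35a4.

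Slc35a1, on chromosome 4, is the CMP-sialic acid transporter of the Golgi and the route by which every sialyltransferase gets its donor. It had 1133 and 958 normalised reads in overexpressing cells, against 1284 and 1146 in wild type cells. Both overexpression libraries were below both wild type libraries, although the nearest values differed by little. The log2 difference was -0.22, with 95% limits of -0.52 and 0.08, and it ranged from -0.34 without overexpression replicate 1 to -0.098 without overexpression replicate 2. The 4 genes of CMP-sialic acid synthesis had a median log2 difference of -0.11, with 1 above and 3 below 0, and none was called or had an unadjusted limma p under 0.05. Nans, the synthase that makes the sialic acid skeleton, had 2778 and 2823 normalised reads in overexpressing cells, against 2950 and 3017 in wild type cells. Cmas, which activates sialic acid with CMP, had a log2 difference of 0.10, and Nanp, the phosphatase between them, one of -0.19.

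Of the sialyltransferases that use this donor, 10 of 11 in the table were tested, 7 above and 3 below 0, with a median log2 difference of 0.06. None was called, and 1 had an unadjusted limma p under 0.05. It was St6gal1, which caps N-glycans with sialic acid, with 195 and 172 normalised reads in overexpressing cells, against 396 and 282 in wild type cells. Its groups did not overlap, with a log2 difference of -0.87 and a limma adjusted p of 0.332. The gene lies on chromosome 16, whose genes were otherwise shifted upward, as described with Slc35a5. St3gal5, the GM3 synthase at the start of ganglioside synthesis, had a log2 difference of 0.0071, and St3gal2, at -0.07, also overlapped between the groups. St3gal3, another enzyme of the list, had groups apart at a log2 difference of 0.41, without a call.

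Slc35a2, on the X chromosome, carries UDP-galactose. It had 465 and 369 normalised reads in overexpressing cells, against 631 and 391.8 in wild type cells. Wild type replicate 1 stood above the other 3 libraries, and the groups overlapped. The log2 difference was -0.26, with 95% limits of -0.86 and 0.34, the widest of the 9 members. It was -0.61 without wild type replicate 2 and 0.08 without wild type replicate 1, so its sign rests on wild type replicate 1.

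The 8 genes of UDP-galactose and UDP-glucose synthesis were split 4 above and 4 below 0, with a median log2 difference of -0.03. None was called, and 1 had an unadjusted limma p under 0.05. It was Galt, the uridylyltransferase of galactose breakdown, with 315 and 288 normalised reads in overexpressing cells, against 360 and 427 in wild type cells (log2 difference -0.38, limma adjusted p = 0.612). Of 12 galactosyltransferases, 7 were above and 5 below 0, with a median of 0.05, none called and 1 with an unadjusted limma p under 0.05. This was the weakly expressed B3galt4, which acts on gangliosides, with 12 and 13.9 normalised reads in overexpressing cells, against 37.7 and 28.4 in wild type cells (log2 difference -1.28, limma adjusted p = 0.492). B4galt5, a lactosylceramide synthase, had a log2 difference of 0.04 and B4galt1, which galactosylates N-glycans, one of 0.13. In the synthesis list the log2 differences were -0.18 for the UDP-glucose pyrophosphorylase Ugp2, 0.10 for the phosphoglucomutase Pgm2 and 0.25 for the galactokinase Galk1. Colgalt1, which puts galactose on collagen, stood at -0.01.

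Slc35a3, on chromosome 3, carries UDP-N-acetylglucosamine (UDP-GlcNAc) into the Golgi, where branched N-glycans are built. It had 2190 and 2550 normalised reads in overexpressing cells, against 2340 and 2174 in wild type cells. The groups overlapped, with a log2 difference of 0.07 and 95% limits of -0.19 and 0.32. An annotated gene on the same strand, Gm43191, overlaps Slc35a3 and had no entry in the table under its Ensembl identifier. How reads of the overlap were assigned was not tested. Slc35b4, on chromosome 6, carries UDP-xylose and UDP-GlcNAc, and UDP-xylose begins the linker of glycosaminoglycans. It had 2288 and 2698 normalised reads in overexpressing cells, against 2829 and 2651 in wild type cells. The groups overlapped here too, with a log2 difference of -0.14 and 95% limits of -0.40 and 0.12. It was -0.26 without overexpression replicate 2, -0.022 without overexpression replicate 1 and -0.093 without wild type replicate 1. A long antisense gene, Gm13856, overlaps Slc35b4 by 20856 bases, but with 15.0 and 28.5 normalised reads in overexpressing cells, against 8.80 and 1.05 in wild type cells, it was small beside it.

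The 9 genes of UDP-GlcNAc synthesis had a median log2 difference of 0.012, with 5 above and 4 below 0, none called and 1 with an unadjusted limma p under 0.05. It was Nagk, the kinase that salvages GlcNAc, with 1049 and 1004 normalised reads in overexpressing cells, against 1327 and 1508 in wild type cells (log2 difference -0.46, limma adjusted p = 0.303). Gfpt1, the entry enzyme of the hexosamine pathway, had a log2 difference of 0.06 and Uap1l1 one of -0.15. Of 16 tested GlcNAc-transferases among 19 in the table, 7 were above and 9 below 0, the median was -0.07, none was called and 3 had an unadjusted limma p under 0.05. One of these was Gcnt4, which branches O-glycans, with 87.0 and 65.0 normalised reads in overexpressing cells, against 189 and 175 in wild type cells (log2 difference -1.26, limma adjusted p = 0.165). Another was Mgat1, which opens the way to complex N-glycans, with 316 and 412 normalised reads in overexpressing cells, against 673 and 462 in wild type cells (log2 difference -0.63, limma adjusted p = 0.553). The groups did not overlap for either gene. The remaining one, Gcnt1, was counted in few reads, with 31 and 7.30 normalised reads in overexpressing cells, against 0 and 4.21 in wild type cells (log2 difference 2.84, limma adjusted p = 0.609). It is named because it completes the count of 3, after its values were seen. The most abundant enzymes of the list, the branching enzymes Mgat2 and Mgat4b, had log2 differences of -0.05 and -0.10.

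Both genes of UDP-glucuronate and UDP-xylose synthesis, the substrates of Slc35b4 and of glycosaminoglycan polymerases, were tested, both lay above 0 with a median log2 difference of 0.18, and none was called or had an unadjusted limma p under 0.05. Uxs1, the UDP-xylose synthase, had 2434 and 1734 normalised reads in overexpressing cells, against 1626 and 1753 in wild type cells, and its groups overlapped. The other is Ugdh, the UDP-glucose dehydrogenase, with a log2 difference of 0.07. Of 12 tested genes of glycosaminoglycan chain synthesis among 13 in the table, 8 were above and 4 below 0, with a median of 0.03, none called and 1 with an unadjusted limma p under 0.05. It was Chpf, the chondroitin polymerising factor (log2 difference -0.32, limma adjusted p = 0.489). The xylose kinase Fam20b had a log2 difference of 0.05 and Ext2, of the heparan sulfate polymerase, one of -0.09.

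Slc35b2 and Slc35b3 both carry PAPS, the activated sulfate used to sulfate heparan, chondroitin and tyrosines. Slc35b2, on chromosome 17, had 1673 and 1621 normalised reads in overexpressing cells, against 1625 and 1582 in wild type cells. Its 4 libraries were closer together than those of any other member, with a log2 difference of 0.04, a standard error of 0.0845 and 95% limits of -0.17 and 0.24, and it stayed between 0.016 and 0.062 with each library left out. Slc35b3, on chromosome 13, was less abundant, with 356 and 377 normalised reads in overexpressing cells, against 459 and 410 in wild type cells. Its groups did not overlap, and its log2 difference was -0.24, with 95% limits of -0.56 and 0.08, or -0.16 without wild type replicate 1. The long noncoding gene Gm26514 lies within Slc35b3 on the same strand and had 59.0 and 52.6 normalised reads in overexpressing cells, against 64.1 and 40.02 in wild type cells, so some reads may have been assigned to either gene.

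Among the 4 genes of PAPS synthesis, 3 were above and 1 below 0, with a median log2 difference of 0.09, none called and 1 with an unadjusted limma p under 0.05. That gene was Papss2, a bifunctional PAPS synthase, with 270 and 241 normalised reads in overexpressing cells, against 106 and 88.5 in wild type cells. The groups were well apart, and the log2 difference was 1.39 with a standard error of 0.186, but the limma adjusted p was 0.0765 and ranged from 0.0328 to 0.305 over the alternatives. It was the only pathway gene called with robust variances, and limma voom called none. The more abundant Papss1, which makes the same product, had a log2 difference of -0.06, and Impad1, a phosphatase that clears the spent PAP, one of 0.09. Of 15 tested Golgi sulfotransferases among 20 in the table, 8 were above and 7 below 0, with a median of 0.02, none called and 1 with an unadjusted limma p under 0.05. It was Chst11, which sulfates chondroitin and also lies on chromosome 10 (log2 difference 0.25, limma adjusted p = 0.549). The heparan sulfate enzymes Ndst1 and Hs2st1 had log2 differences of -0.03 and 0.16.

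Slc35b1, on chromosome 11, differs from the other members in its site and cargo, since its human counterpart exchanges ATP for ADP across the membrane of the endoplasmic reticulum and so supplies chaperones there. It had 891 and 1092 normalised reads in overexpressing cells, against 902 and 921 in wild type cells. The groups overlapped, and the log2 difference was 0.11, with 95% limits of -0.19 and 0.42. All 19 genes of chaperones and the oligosaccharyltransferase of the endoplasmic reticulum were tested, 9 above and 10 below 0, with a median log2 difference of -0.03. None was called, and 2 had an unadjusted limma p under 0.05, the lectin chaperone Canx at a log2 difference of -0.26 (limma adjusted p = 0.453) and the catalytic oligosaccharyltransferase subunit Stt3a at -0.21 (limma adjusted p = 0.610). Hsp90b1, the abundant chaperone of the lumen, had a log2 difference of 0.11, and the lectin chaperone Calr one of -0.14.

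Slc35a5, on chromosome 16, resembles the UDP-sugar transporters in sequence and its cargo is less well defined. It had 858 and 714 normalised reads in overexpressing cells, against 626 and 591 in wild type cells. Both overexpression libraries were above both wild type libraries, and this was the one member that was higher without overlap, 1.29-fold. The log2 difference was 0.36, with a standard error of 0.129 and 95% limits of 0.05 and 0.68, and it ranged from 0.23, with overexpression replicate 1 left out, to 0.50, with overexpression replicate 2 left out. The chromosome moved the same way: of 350 genes on it with a mean of at least 100 normalised reads, 283 were above 0, their median was 0.18 and their quartiles were 0.04 and 0.29, and 52 of them exceeded Slc35a5. With each chromosome's median taken off, the log2 difference of Slc35a5 was 0.19, with 95% limits of -0.13 and 0.50. In the mouse annotation Slc35a5 starts back to back with Atg3, which encodes an enzyme of autophagosome lipidation. Atg3 had 2132 and 2178 normalised reads in overexpressing cells, against 1729 and 1810 in wild type cells. Its groups did not overlap either, and its log2 difference was 0.28. With the chromosome median taken off it was 0.11, with 95% limits of -0.095 and 0.31.

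The stretch between the RefSeq starts of the pair is shown because both genes face away from it and were higher together. It was thus picked with their values known. It spans 155 bases at chr16:45158674-45158828 of GRCm38.p6, on the minus strand, read towards Slc35a5, and capitals mark the E-box CACGTG, a palindrome that reads the same on both strands:
Slc35a5 and Atg3 start region: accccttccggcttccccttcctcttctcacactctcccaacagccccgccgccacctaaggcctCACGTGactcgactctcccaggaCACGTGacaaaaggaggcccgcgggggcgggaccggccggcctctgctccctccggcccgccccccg
The E-boxes begin 90 and 67 bases before the Slc35a5 start. Matches of the GC box and the ETS core, described below, also lie in this stretch and are not in capitals. Among 32851 RefSeq promoter windows, each from 250 bases before to 50 bases after a start, 7.15% held the E-box and 0.594% held at least 2. Of the 8 members whose windows were searched, which do not include Slc35a4, 1 held it, Slc35a5. Other motifs were also searched on both strands. The 8 members had 9 windows, since Slc35b3 had 2, and a member was counted if any of its windows held a match. The shares over all windows are per window, so they are not the same measure as the counts of members. Slc35b3 is in the counts for the GC box, CCAAT box, ETS core and TATA box. The GC box GGGCGG was in the windows of 5 of the 8 members, beside 35.7% of all windows, and the CCAAT box in 2, beside 37.4%. The ETS core CCGGAAG was in 3, beside 8.86%, and the TATA box TATAAA in 2, beside 13.6%. The CRE TGACGTCA, found in 1.79% of all windows, and the NRF1 core GCATGCGC, found in 2.71%, were in none of the 8. No match of one motif overlapped a match of another in these windows, and no match is evidence of binding.

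Levels between genes were compared per kilobase of the longest annotated transcript. In overexpressing cells the order of mean normalised reads per kilobase was Slc35b2 at 708 ± 15.7, Slc35b1 at 651 ± 93.3, Slc35a1 at 513 ± 60.8, Slc35a3 at 414 ± 44.4 and Slc35b4 at 399 ± 46.4. It went on with Slc35a4 at 209 ± 42.7, Slc35a5 at 186 ± 24.1, Slc35b3 at 148 ± 6.09 and Slc35a2 at 135 ± 21.9 (SD, n = 2 for each gene). The neighbours Slc35b2 and Slc35b1, Slc35a3 and Slc35b4, Slc35a4 and Slc35a5, and Slc35b3 and Slc35a2 did not differ beyond their spread there.

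In wild type cells the order of the same quantity was Slc35a4 at 783 ± 43.5, Slc35b2 at 689 ± 13.0, Slc35b1 at 599 ± 9.23, Slc35a1 at 596 ± 47.9 and Slc35b4 at 438 ± 20.2. It ended with Slc35a3 at 394 ± 20.6, Slc35b3 at 175 ± 14.03, Slc35a2 at 165 ± 54.7 and Slc35a5 at 144 ± 5.92. Here Slc35b1 and Slc35a1, Slc35b3 and Slc35a2, and Slc35a2 and Slc35a5 did not differ beyond their spread. Slc35a4 thus took place 6 of 9 in overexpressing cells and place 1 in wild type cells. Per kilobase of coding sequence its place was 6 in overexpressing cells and 3 in wild type cells. It made up 5.44% and 6.95% of the family's reads per kilobase in the overexpression libraries, against 18.5% and 20.9% in the wild type libraries. The other 8 members summed to 3105 and 3200 normalised reads per kilobase in overexpressing cells, against 3318 and 3082 in wild type cells, so that the groups overlapped.

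**Figure D3:**
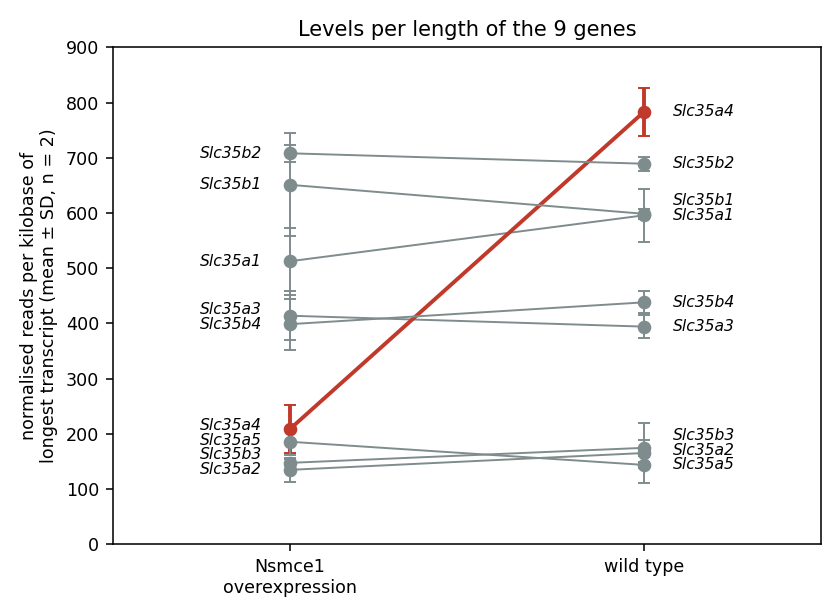
Mean normalised reads per kilobase of the longest transcript for the 9 members in Nsmce1 overexpression and wild type cells, with SD bars (n = 2) and a line joining the means of each gene. Slc35a4 stands at 209 in overexpressing cells and at 783 in wild type cells, and the other 8 genes differ less between the groups.

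Slc35a4 lies on chromosome 18. Its 10 nearest tested neighbours, 5 on each side, had log2 differences from -0.96 for Eif4ebp3 to 0.43 for Hbegf, and none was called. Their median was -0.06, with Ankhd1 at -0.04, Gm6542 at -0.22, Cd14 at -0.09, Ndufa2 at -0.15 and Ik at -0.08. Eif4ebp3, a translation repressor, was counted in few reads, with 11 and 7.30 normalised reads in overexpressing cells, against 44.0 and 7.37 in wild type cells, and its standard error was 0.845. The neighbour on one side, Sra1, a steroid receptor coactivator, was the one with an unadjusted limma p under 0.05, at 1557 and 1315 normalised reads in overexpressing cells, against 1058 and 1148 in wild type cells. It was higher, with a log2 difference of 0.38 and a limma adjusted p of 0.494. On the other side, 1.06 kb away, E230025N22Rik had 41.0 and 47.4 normalised reads in overexpressing cells, against 41.5 and 35.8 in wild type cells. Neither of these tested genes, of which Sra1 lies 8.4 kb from Slc35a4, had a lower mean in overexpressing cells. Apbb3, which overlaps Slc35a4, had no entry in the table under its Ensembl identifier and is not among the genes analysed.

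**Figure D4:**
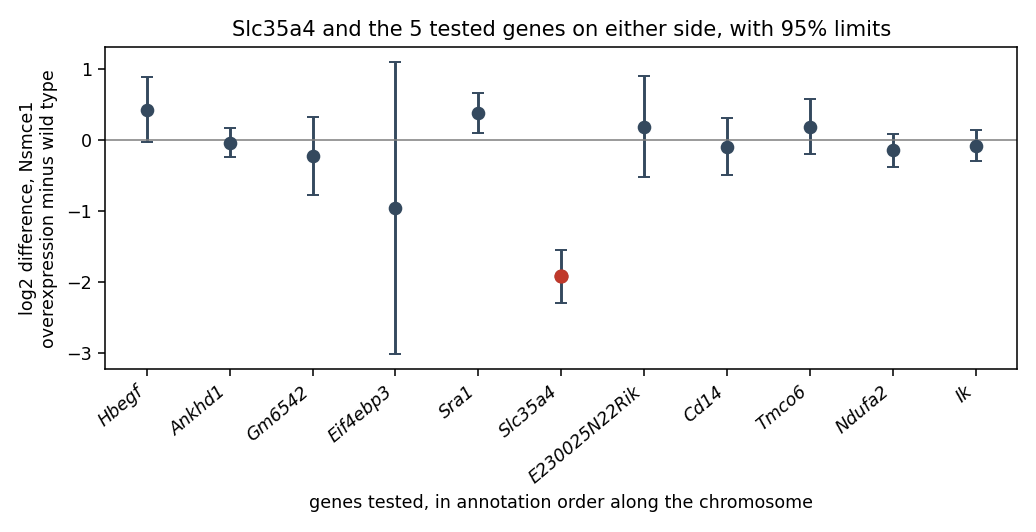
Log2 difference, Nsmce1 overexpression minus wild type, of Slc35a4 and of 5 tested genes on either side in gene order, with limma 95% limits. Slc35a4 lies at -1.92, and Eif4ebp3, with few reads and a wide interval, is the neighbour with the most negative value, -0.96.

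The genes whose pattern over the 4 libraries was nearest to that of Slc35a4 were found by the Euclidean distance between log2 values centred on each gene's own mean, among genes with a mean of at least 100 normalised reads. They were Slc39a9 at a distance of 0.402, Glcci1 at 0.434, Bcl2l2 at 0.471, Pld4 at 0.474 and Krcc1 at 0.483. All were picked for being lower, so their differences are a description. Slc39a9, a zinc transporter, had 550 and 561 normalised reads in overexpressing cells, against 1833 and 1707 in wild type cells. Bcl2l2, a survival factor of the BCL2 family, had 429 and 751 in overexpressing cells, against 1620 and 1683 in wild type cells. The other log2 differences were -1.64 for Glcci1, -1.79 for Pld4 and -1.62 for Krcc1. Of the 5, all but Pld4 overlap another tested gene: Slc39a9 shares 459 bases with Erh on the opposite strand, and Glcci1, Bcl2l2 and Krcc1 overlap the provisional genes Gm45062, Gm20521 and Gm44321 on their own strand. Gm45062 was at 384 and 232 normalised reads in overexpressing cells and listed at 0 in both wild type libraries, so how reads were divided between it and Glcci1 bears on the value of Glcci1 and was not tested.

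Of the wider Slc35 family, 13 of 15 genes in the table outside the a and b subfamilies were tested, 5 above and 8 below 0, with a median log2 difference of -0.07, none called and none with an unadjusted limma p under 0.05. The abundant Slc35e3 had 1682 and 3025 normalised reads in overexpressing cells, against 2544 and 1315 in wild type cells, so its libraries scattered within both groups. The other log2 differences were 0.06 for Slc35e1, 0.89 for the weakly expressed Slc35g2 and -0.51 for Slc35f6. The 4 phosphatases of the lumen, which clear the nucleotide left after sugar transfer, had a median of 0.03, with 2 above and 2 below 0, none called and 1 with an unadjusted limma p under 0.05. It was Entpd5, a UDPase of the endoplasmic reticulum, with 511 and 530 normalised reads in overexpressing cells, against 337 and 315 in wild type cells. Its groups did not overlap, with a log2 difference of 0.67, a standard error of 0.122 and a limma adjusted p of 0.173. Cant1 and Entpd4, which also split UDP, had log2 differences of -0.03 and 0.07.

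Over the 14 lists, 141 of 154 genes in the table were tested, 77 above and 64 below 0, with a median log2 difference of 0.015. None was called by limma, none by limma voom and 1 with robust variances. Of the 141, 14 or 9.93% had an unadjusted limma p under 0.05, beside 7.92% of all tested genes. The groups did not overlap for 57, or 40.4%, beside 39.1% of all tested genes. These shares lie near the background, so the genes of the 14 lists gave no result as a group. A gene of the lists that was not called can still have differed, since the median standard error of a log2 difference was 0.133.

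**Figure D5:**
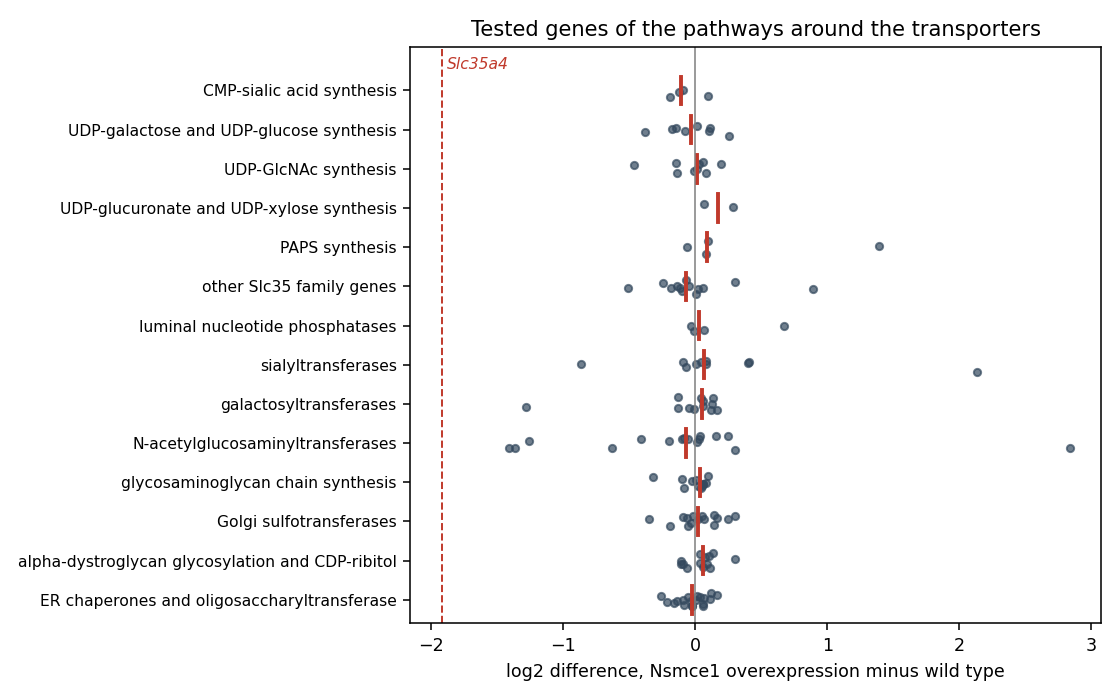
Log2 difference, Nsmce1 overexpression minus wild type, of the tested genes of the 14 lists, a point per gene with a bar at each list's median and a dashed line at Slc35a4. List medians lie between -0.11 and 0.18, Papss2 lies at 1.39, and the point farthest to the right is Gcnt1 at 2.84.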

How the data were processed

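RNA was measured in 4 libraries, 2 per group. Per the labels' protocols, RNA was taken up in Trizol, libraries were made with a TruSeq kit and run on a BGISEQ500. HISAT, Cufflinks and the build mm9 were used, per the submitters' processing notes. Their versions, the counting rule and the use of strand are not given in these sources. The authors deposited 1 table of log2 values, log2(normalised reads + 1). After the log2 was undone, values were divided by what 1 read was worth in each library. This was 1.00 and 0.730 normalised reads in the overexpression libraries and 1.26 and 1.05 in the wild type libraries. The division gave whole reads for 100% of values. The tolerance was 0.001 for low counts and grew in proportion to the count for abundant genes. Depth and the input of limma voom came from these whole reads. The table names no other samples.

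The deposited log2 values were fitted with limma 3.58.1 (R 4.3.3), with a mean-variance trend and group as the one term, over the 15540 genes averaging 10 or more normalised reads (9510 fell under this minimum). P-values are two-sided, adjusted by Benjamini-Hochberg over all tested genes at 0.05. The plan allowed for counts or normalised values, and the branch for normalised values was used. Because 1 is added before the log2, folds of weakly expressed genes come out too small. An exact permutation test of 2 libraries against 2 cannot go below a two-sided p of 0.333, and limma's calls draw on the variance of all genes (prior degrees of freedom 4.10, total 6.10). The fit was tested on simulated data.

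Lengths and gene order came from GENCODE M21 (GRCm38) by Ensembl identifier for 15503 tested genes. Promoter windows came from RefSeq (GRCm38.p6) by symbol and were searched for 8 of the 9 members. The search of the members left out chromosome 18, where Slc35a4 lies, so no window of Slc35a4 was searched. No coordinates were carried between these annotations and mm9. Named genes were the 9 members, Nsmce1, genes called in a list, the 2 of highest level and the 2 of smallest p per pathway list, the 5 genes nearest in pattern and the 10 neighbours. The members and lists were chosen with earlier results of these data known. Alternatives were other pseudocounts, minimums, scalings, variance models, thresholds and lengths, the replicate block and each library left out.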

Additional observations from a re-analysis of the deposited data

How the results depend on the processing

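At the threshold of 0.05, the log2 difference of Slc35a4 was negative in all 16 alternatives and it was called in 13 of them. It was not called by limma without trend (-1.92, limma adjusted p = 0.256), or without wild type replicate 1 (-1.98, adjusted p = 0.149) or wild type replicate 2 (-1.86, adjusted p = 0.161), nor at a threshold of 0.01 (-1.92, adjusted p = 0.0147); with 1 library in a group, the lone sample is assumed to vary like the other group, and leaving out each library gave -2.13 to -1.71. The adjusted p ranged from 0.00314 to 0.256. The number of members called, 1, became 0 without trend and at the threshold of 0.01, and was 0 to 1 with each library left out. The genes called, 30, numbered 16 with no minimum, 18 with quantile normalization, 9 without trend, 72 with robust variances, 20 with limma voom on the whole reads, 11 at the threshold of 0.01 and 2 to 75 with each library left out. With the replicate block 60 genes were called; same-numbered libraries shared only a number (r = 0.00589 between their deviations over 11650 genes), and the block left the number of calls among the members and the pathway lists as it was. The pathway lists held 1 called gene with robust variances, Papss2, and 0 to 1 with each library left out (B3gnt2, without overexpression replicate 2). The median of the 9 members ranged from -0.19 to 0.058 with each library left out, and that of the 10 neighbours from -0.052 to 0.047, and was -0.078 with quantile normalization. With GENCODE coding length, chosen after seeing the data, Slc35a4 took place 3 in wild type cells. Lengths from RefSeq proteins were not run. With chromosome medians removed Slc35a5 stood at 0.19. A minimum of 1000 kept 3 of the 5 genes nearest to Slc35a4. The other 8 members kept their sign in 96 of 96 values that used all 4 libraries. The cause of these changes was not tested, except that fewer samples enter where a library is left out.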

Other observations

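B3gnt2, which extends poly-N-acetyllactosamine chains, was named after its values were seen. It had 318 and 1416 normalised reads in the Nsmce1 overexpression libraries, against 1796 and 1667 in the wild type libraries. Overexpression replicate 1 stood far below the other 3 libraries, and the log2 difference over all 4 libraries was -1.36, with a standard error of 0.623 and no call (limma adjusted p = 0.659). Without overexpression replicate 2 its log2 difference was -2.44 and it was called (limma adjusted p = 0.00379).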
